A study of Mus musculus with 9 samples.

Results

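The LIF/gp130 and IL-4 receptor signalling genes are a set of 10 genes: the receptor chains Lifr, Osmr, Il6st and Il6ra, the ligands Lif and Il11, the feedback inhibitor Socs3, the receptor chains Il4ra and Il13ra1, and the transcription factor gene Stat6. They were named with earlier results of these data known, among them the fall of Lifr and the rise of Il4ra with hPTH(1-34), so the hPTH(1-34) values of those genes are a description and no independent evidence. Each gene was read from the transcript cluster (a group of probes for one transcript region) that carries its symbol alone, chosen by the highest mean level over the 9 arrays. All 10 genes were found, of 22180 genes with such a cluster, and Socs3 alone had a second one. Primary osteoblasts, the bone-forming cells, came from the calvaria (skull caps) of 7 to 10 day old C57BL/6J mice, were used at passage 2, differentiated with β-glycerophosphate and ascorbic acid, and then kept without serum for 24 hr. The 3 treatments lasted 4 hr each and had 3 arrays each: 100 nM of human parathyroid hormone fragment hPTH(1-34), 1 µM of the bovine fragment bPTH(7-34) with D-Trp12 and Tyr34, and vehicle. hPTH(1-34) activates the parathyroid hormone receptor, while bPTH(7-34) lacks the first residues and is known to block it. The doses of the peptides differ, so a difference between them is not one at matched dose.

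Cytokines of the interleukin 6 family, such as LIF, oncostatin M and interleukin 11, signal through receptor complexes that share the chain gp130, the product of Il6st. A second chain or a ligand-specific receptor decides which cytokine is bound: LIFR for LIF, OSMR for oncostatin M, and the interleukin 6 receptor Il6ra for interleukin 6. The complexes activate JAK kinases and chiefly STAT3, which switches on its own inhibitor Socs3, and in bone this family is known for effects on both osteoblasts and osteoclasts. Interleukin 4 and interleukin 13 act through the chain IL-4Rα, the product of Il4ra, paired in non-blood cells with the product of Il13ra1, and activate STAT6.

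RefSeq promoter windows (build GRCm38.p6) were found for all 10 genes, 12 windows in all, and the 250 bases before each start were searched on both strands for 4 motifs. These were the cAMP response element TGACGTCA, its shorter form TGACG (which lies within it), the STAT site TTCNNNGAA and a STAT6 type site, TTC and GAA with 4 letters between them. The windows below are those of the genes that changed most, Lifr with 2 windows and Il4ra. The window of Socs3, the STAT3 target, is shown too, where capitals mark a STAT site. The Lifr gene begins at base 7090610 of chromosome 15 in RefSeq, ahead of both of its windows. Bases before that point were not searched, and first and second start name the order of the windows. All windows are the strand of the gene, 5′ to 3′.
Lifr, first start (chr15:7129322-7129571, + strand): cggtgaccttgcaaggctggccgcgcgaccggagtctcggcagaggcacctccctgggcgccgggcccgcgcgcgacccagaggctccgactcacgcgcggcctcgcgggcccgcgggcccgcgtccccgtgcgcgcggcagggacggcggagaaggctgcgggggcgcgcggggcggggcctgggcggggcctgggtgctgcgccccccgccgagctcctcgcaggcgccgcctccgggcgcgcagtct
Lifr, second start (chr15:7140292-7140541, + strand): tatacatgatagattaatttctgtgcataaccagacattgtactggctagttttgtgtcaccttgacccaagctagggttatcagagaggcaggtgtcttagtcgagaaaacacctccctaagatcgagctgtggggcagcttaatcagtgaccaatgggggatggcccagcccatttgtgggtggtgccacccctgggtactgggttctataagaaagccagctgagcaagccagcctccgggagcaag
Il4ra (chr7:125552021-125552270, + strand): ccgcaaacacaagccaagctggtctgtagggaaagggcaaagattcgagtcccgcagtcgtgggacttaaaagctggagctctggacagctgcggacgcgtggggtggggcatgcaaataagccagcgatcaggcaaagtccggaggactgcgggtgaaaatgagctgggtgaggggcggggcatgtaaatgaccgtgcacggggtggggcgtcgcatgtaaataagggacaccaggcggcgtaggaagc
Socs3 (chr11:117969367-117969616, - strand): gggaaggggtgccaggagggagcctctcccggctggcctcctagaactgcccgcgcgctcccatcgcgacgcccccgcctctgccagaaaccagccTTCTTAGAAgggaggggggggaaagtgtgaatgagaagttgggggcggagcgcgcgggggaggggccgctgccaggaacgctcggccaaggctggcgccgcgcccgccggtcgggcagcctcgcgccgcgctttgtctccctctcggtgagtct
Neither Lifr window nor the Il4ra window held any of the 4 motifs. The Lifr windows differed in base composition, with 82.4% G and C before the first start and 50.8% before the second. The short form TGACG stood before Il6ra and Stat6, so in 2 of the 12 windows, against 17.8% of 32851 mouse windows of the same length. The STAT site stood before Socs3 alone, at bases -154 to -146 counted back from the start, against 7.02% of all windows. The full element TGACGTCA (1.55% of all windows) and the STAT6 type site (5.85%) stood in 0 of the 12. These matches of letters describe the windows only.

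The deposited values are log2 RMA levels, and 23521 clusters with a single symbol were tested in one limma fit of the 9 arrays. Array medians ran from 1.67 to 1.76, and correlations between arrays over all clusters ran from 0.977 to 0.982 within a group and from 0.972 to 0.985 between groups. As a guide to background, 95% of 1105 olfactory receptor genes had a vehicle mean below 1.69. Of 9 measured osteoblast markers 6 lay above it (Col1a1, Col1a2, Alpl, Ibsp, Sparc and Pth1r), while Sp7, Bglap and Dmp1 did not. All 8 macrophage markers lay above it too, and their mean level varied from array to array, between 3.50 and 5.36 with hPTH(1-34), 3.61 and 4.85 with bPTH(7-34), and 4.14 and 5.07 with vehicle. None of the 5 T, B and NK cell markers and none of the 4 mast cell and basophil markers did. Of 5 adipocyte markers 4 lay above it, and the mean level per array of the 5 was 3.98 to 4.84 with hPTH(1-34), 3.73 to 4.34 with bPTH(7-34) and 3.69 to 4.20 with vehicle, with a median log2 change of 0.54 for hPTH(1-34) against vehicle. Above it, too, were 3 of 5 endothelial, 4 of 5 chondrocyte and 4 of 5 skeletal muscle markers. None of these marker genes passed in any comparison in limma, and the part of other cell types in the results was not tested. No filter on low values was set. The mean over the 9 arrays of each of the 10 genes lay above the guide, although the vehicle mean of Il11 (1.67) did not. In bulk RNA, fewer cells of a type and less RNA per cell cannot be told apart.

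Among the gp130 family receptors, Lifr was the gene with a clear difference. Its log2 level was 7.63, 7.66 and 7.51 on the hPTH(1-34) arrays, 8.40, 8.65 and 8.82 on the bPTH(7-34) arrays, and 8.40, 8.76 and 8.79 on the vehicle arrays. All 3 hPTH(1-34) arrays lay below all 6 others, and the bPTH(7-34) and vehicle arrays overlapped. With hPTH(1-34) Lifr was 2.07-fold lower than with vehicle (log2 change -1.05 ± 0.14 SE, n = 3 per group, limma adjusted p = 0.0237) and 2.03-fold lower than with bPTH(7-34) (-1.02 ± 0.14, adjusted p = 0.0235). Its change with bPTH(7-34) against vehicle was -0.03, with a 95% interval from -0.34 to 0.29. Subtracting arrays with the same number in their titles, the hPTH(1-34) minus vehicle difference of Lifr was -0.77, -1.10 and -1.28. The call against vehicle was lost in limma without hPTH(1-34) array 2 (adjusted p = 0.114) or 3 (0.133), bPTH(7-34) array 2 (0.0501), or vehicle array 2 (0.135) or 3 (0.131), with changes between -1.18 and -0.98 over the 9 fits that each left out an array. Against bPTH(7-34) it was lost without hPTH(1-34) array 2 (0.115) or 3 (0.116), bPTH(7-34) array 2 (0.0949) or 3 (0.112), or vehicle array 2 (0.0568).

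**Figure D1:**
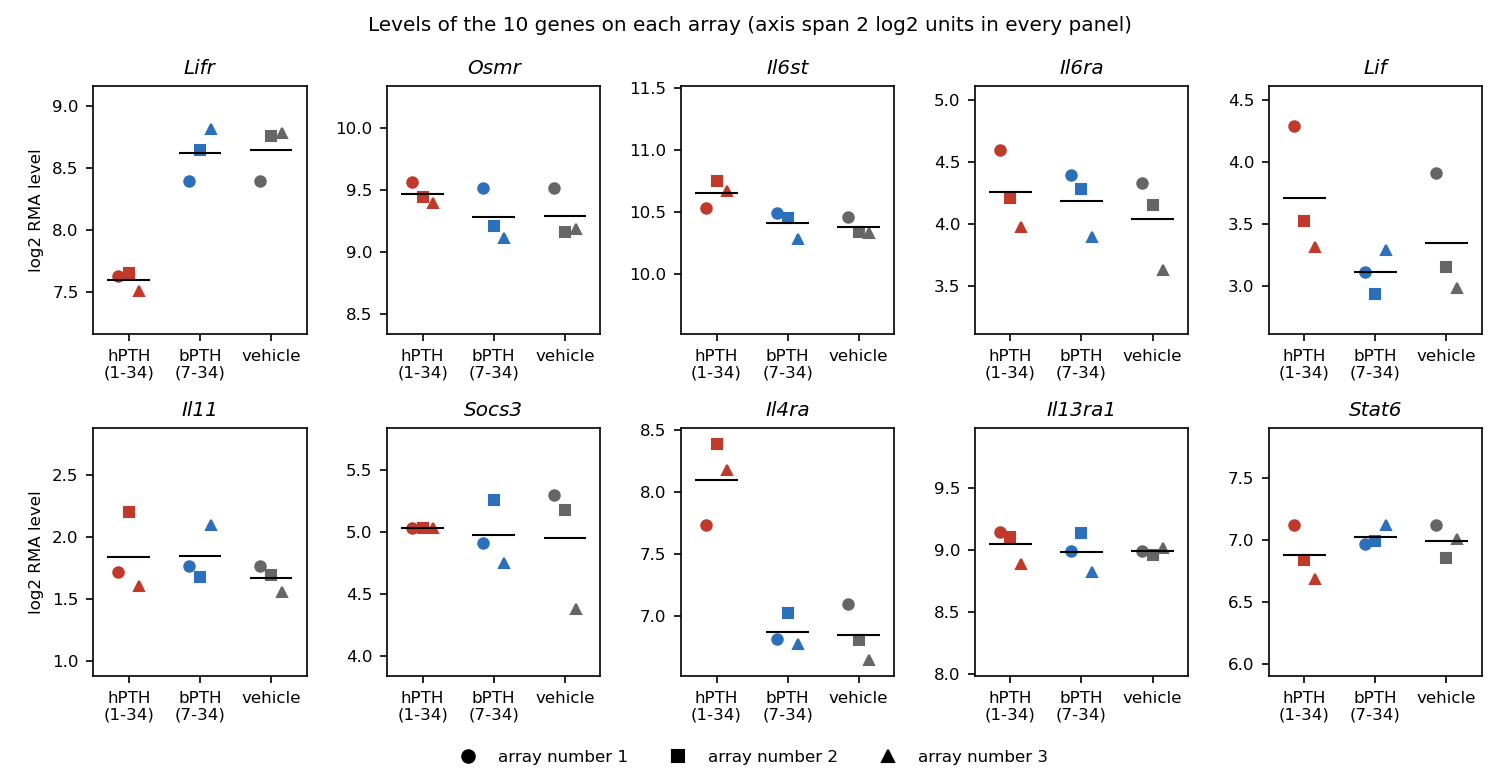
Log2 RMA level of each of the 10 genes on the 9 arrays, 1 panel per gene with an axis span of 2 log2 units. Points are single arrays (colour for treatment, shape for the array number in the title) and black lines are means of 3 arrays; the hPTH(1-34) points of Lifr lie below and those of Il4ra above all others, and Osmr and Il6ra are highest at array number 1 in each treatment.

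The related chain Osmr, whose gene is the nearest protein-coding gene to Lifr on one side in the RefSeq table, did not fall with it. Osmr stood at 9.56, 9.44 and 9.39 with hPTH(1-34), at 9.51, 9.21 and 9.11 with bPTH(7-34), and at 9.51, 9.16 and 9.18 with vehicle. The 3 groups overlapped, and the change was 0.18 ± 0.14 for hPTH(1-34) against vehicle (limma adjusted p = 0.739). Il6st, which encodes the shared chain gp130, was at 10.53, 10.75 and 10.67 with hPTH(1-34), 10.49, 10.45 and 10.28 with bPTH(7-34), and 10.46, 10.34 and 10.33 with vehicle. Each hPTH(1-34) array lay above the 6 others, but the gap was small. The change of Il6st was 0.27 (95% interval 0.05 to 0.50, limma adjusted p = 0.415) against vehicle and 0.24 (0.02 to 0.47, adjusted p = 0.473) against bPTH(7-34), so neither passed. Il6ra, the receptor chain for interleukin 6, was at 4.59, 4.21 and 3.97 with hPTH(1-34), 4.39, 4.28 and 3.89 with bPTH(7-34), and 4.33, 4.15 and 3.63 with vehicle. Its groups overlapped, with a change of 0.22 ± 0.22 for hPTH(1-34) against vehicle (adjusted p = 0.812).

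Because LIFR and gp130 work as a pair and OSMR is the alternative partner, the chains were also set against each other on each array. A difference between the levels of different probes has no meaning as an abundance, so only its shift between treatments is read. Osmr minus Lifr was 1.93, 1.78 and 1.88 with hPTH(1-34), 1.11, 0.56 and 0.29 with bPTH(7-34), and 1.11, 0.40 and 0.39 with vehicle. Every hPTH(1-34) array lay above the others, and the mean shift was 1.23 against vehicle and 0.02 for bPTH(7-34) against vehicle. Il6st minus Lifr shifted by 1.32 with hPTH(1-34) against vehicle and by 0.06 with bPTH(7-34). With 3 arrays per group an exact two-sided permutation test cannot go below 0.1, which is the p of both hPTH(1-34) shifts, and over the 9 such tests made here the lowest adjusted p was 0.15. These pairs were chosen after the values were seen. Both hPTH(1-34) shifts contain the Lifr change given above, so they are no separate results.

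**Figure D2:**
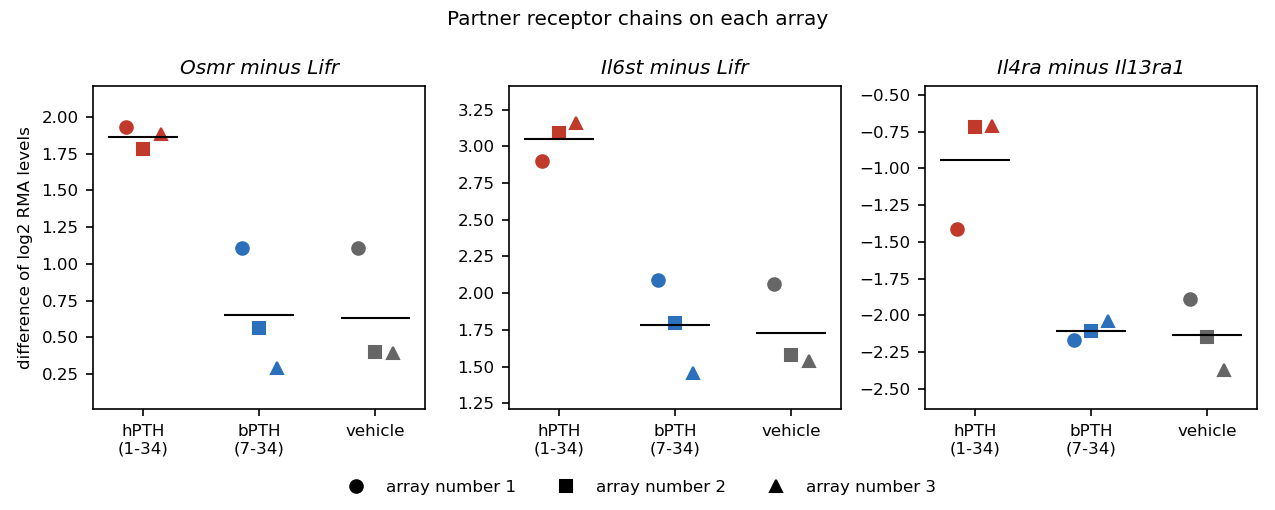
Difference of log2 RMA levels between partner receptor chains on each array, 1 panel per pair, with the axes spanning 2.2 log2 units; points are arrays (shape for array number) and lines are means of 3. In all 3 panels the hPTH(1-34) arrays lie above the others, by mean shifts of 1.23, 1.32 and 1.19 against vehicle.

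Neither of the 2 ligand genes in the set passed the test. Lif, which encodes leukemia inhibitory factor, was at 4.29, 3.52 and 3.31 with hPTH(1-34), 3.11, 2.93 and 3.29 with bPTH(7-34), and 3.91, 3.15 and 2.98 with vehicle. The hPTH(1-34) arrays were above those of bPTH(7-34), by as little as 0.02, and overlapped with vehicle. Its change was 0.36 ± 0.29 against vehicle (limma adjusted p = 0.759) and 0.60 ± 0.29 against bPTH(7-34) (adjusted p = 0.576). Between arrays of one number, hPTH(1-34) minus vehicle was 0.38, 0.37 and 0.33, closer to each other than the levels themselves. The other such differences of Lif were wider apart. They were 1.18, 0.59 and 0.02 for hPTH(1-34) minus bPTH(7-34), and -0.80, -0.22 and 0.31 for bPTH(7-34) minus vehicle. Il11, the interleukin 11 gene, lay around the background guide, between 1.60 and 2.20 with hPTH(1-34), 1.67 and 2.09 with bPTH(7-34), and 1.55 and 1.76 with vehicle, so no change could be measured well (0.17 ± 0.17 for hPTH(1-34) against vehicle, adjusted p = 0.811). Socs3, the inhibitor that STAT3 induces, was at 5.03 on each of the 3 hPTH(1-34) arrays, at 4.91, 5.26 and 4.75 with bPTH(7-34), and at 5.30, 5.18 and 4.38 with vehicle. Its groups overlapped, and the change with hPTH(1-34) against vehicle was 0.08 (95% interval -0.43 to 0.59, adjusted p = 0.953). The dimmer Socs3 cluster gave -0.03 ± 0.22 (adjusted p = 0.982).

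In the IL-4 and IL-13 receptor, the shared chain gene Il4ra was higher with hPTH(1-34). Its level was 7.74, 8.39 and 8.18 with hPTH(1-34), 6.82, 7.03 and 6.78 with bPTH(7-34), and 7.10, 6.81 and 6.65 with vehicle. The hPTH(1-34) arrays lay above all 6 others, array 1 least so. Il4ra was 2.38-fold higher than with vehicle (log2 change 1.25 ± 0.18 SE, n = 3 per group, limma adjusted p = 0.0275) and 2.34-fold higher than with bPTH(7-34) (1.23 ± 0.18, adjusted p = 0.0276). For bPTH(7-34) against vehicle the change was 0.02, with a 95% interval from -0.38 to 0.42. Between arrays of one number, hPTH(1-34) minus vehicle was 0.64, 1.58 and 1.53. In limma the call against vehicle was lost without hPTH(1-34) array 2 (adjusted p = 0.136) or 3 (0.151), bPTH(7-34) array 1 (0.0603) or 2 (0.0551), or vehicle array 2 (0.150) or 3 (0.142), with changes between 1.11 and 1.43. Against bPTH(7-34) it was kept without hPTH(1-34) array 1 (0.00738) or vehicle array 1 (0.0377) and lost in the other 7 such fits (0.0535 to 0.140). Il4ra is known to be expressed in macrophages as well. The mean level of the 8 macrophage markers on arrays 1, 2 and 3 was 5.36, 4.29 and 3.50 with hPTH(1-34), 4.46, 4.85 and 3.61 with bPTH(7-34), and 5.07, 4.14 and 4.48 with vehicle. Array 1 with the highest macrophage mean had the lowest Il4ra level with hPTH(1-34), whereas with vehicle array 1 was highest in both, and with bPTH(7-34) both were highest on array 2 and lowest on array 3. The part of macrophages in the Il4ra values was not tested.

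The partner chain Il13ra1 was close to level in all groups, at 9.15, 9.11 and 8.89 with hPTH(1-34), 8.99, 9.14 and 8.82 with bPTH(7-34), and 8.99, 8.96 and 9.02 with vehicle. For hPTH(1-34) against vehicle its change was 0.06 with a 95% interval from -0.19 to 0.31 (limma adjusted p = 0.912). Stat6, the transcription factor gene of this receptor, was at 7.12, 6.84 and 6.69 with hPTH(1-34), 6.97, 6.99 and 7.12 with bPTH(7-34), and 7.12, 6.86 and 7.01 with vehicle. Its groups overlapped, with a change of -0.11 (-0.40 to 0.17, adjusted p = 0.835). Il4ra minus Il13ra1 was -1.41, -0.72 and -0.71 with hPTH(1-34), -2.17, -2.11 and -2.04 with bPTH(7-34), and -1.89, -2.15 and -2.37 with vehicle. The shift with hPTH(1-34) against vehicle was 1.19 (exact two-sided permutation p = 0.1, the smallest possible), and with bPTH(7-34) it was 0.03. This pair, too, was chosen after the values were seen, and over the 9 such tests the lowest adjusted p was 0.15. The hPTH(1-34) shift contains the Il4ra change given above and is no separate result.

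For hPTH(1-34) against vehicle, then, 1 of the 10 genes passed as higher (Il4ra) and 1 as lower (Lifr), where 0.31% and 0.14% of all tested clusters passed in these directions. Against bPTH(7-34) the same 2 genes passed, 1 higher and 1 lower, where 0.332% and 0.132% of all clusters did. Both comparisons use the same hPTH(1-34) arrays. The genes were named with these calls known, so nothing is read from the shares. The groups did not overlap for 3 of the 10 genes for hPTH(1-34) against vehicle (Lifr, Il6st and Il4ra), where 10.7% of all clusters were so separated, and for 4 of 10 against bPTH(7-34) (Lif in addition), where 11.1% were. The median log2 change over the 10 genes was 0.18 for hPTH(1-34) against vehicle, 8 of them positive, and 0.00 over all tested clusters.

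**Figure D3:**
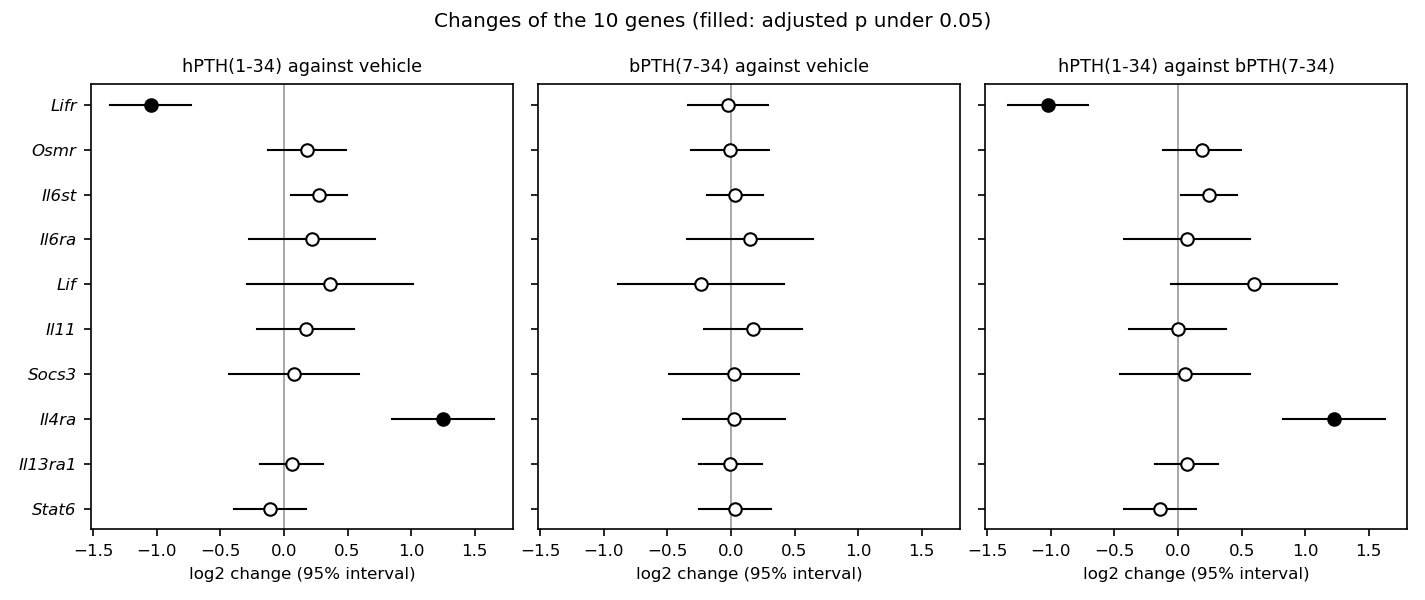
Log2 change of the 10 genes in the 3 comparisons, with points for the estimate, bars for the 95% interval from the limma fit, and filled points for adjusted p under 0.05. Lifr and Il4ra are filled in both comparisons of hPTH(1-34), and every interval for bPTH(7-34) against vehicle holds 0.

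bPTH(7-34) at 1 µM gave no call. None of the 10 genes passed against vehicle, as was so for 0% of the clusters in either direction (0 of 23521 by limma, with 780 at an unadjusted p under 0.05), and none of the 10 had an unadjusted p under 0.05. The groups overlapped for all 10 genes, where 5.29% of all clusters were separated. Estimates ran from -0.24 for Lif to 0.17 for Il11. The intervals bound what could have been missed: for Il6st from -0.19 to 0.25 and for Il13ra1 from -0.25 to 0.24, but for Lif from -0.89 to 0.42 and for Il6ra from -0.35 to 0.65. For Lifr and Il4ra they did not reach the sizes measured with hPTH(1-34), the nearest bounds being -0.34 and 0.42.

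The genes differed in how their spread over the 9 arrays divided. The titles number the arrays of each treatment 1 to 3, and the labels do not say whether a number marks a shared preparation of cells. Of the sum of squares over the arrays, treatment took 91.6% for Lifr, 89.5% for Il4ra and 69.2% for Il6st. Array number took 83.9% for Il6ra and 64.0% for Osmr, and treatment 11.3% and 27.3%. Il6ra had a mean of 4.44 at number 1, 4.21 at number 2 and 3.83 at number 3. Osmr had 9.53, 9.27 and 9.23. For Lif the number took 40.4% and treatment 33.2%, and for Socs3 50.5% and 1.47%. Over all clusters the medians were 24.5% for treatment and 24.7% for number. In a limma fit with both terms, Il6ra had adjusted p = 0.141 for array number and Osmr 0.426, so neither passed, where 0.213% of the clusters did. This description was chosen after the values were seen.

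**Figure D4:**
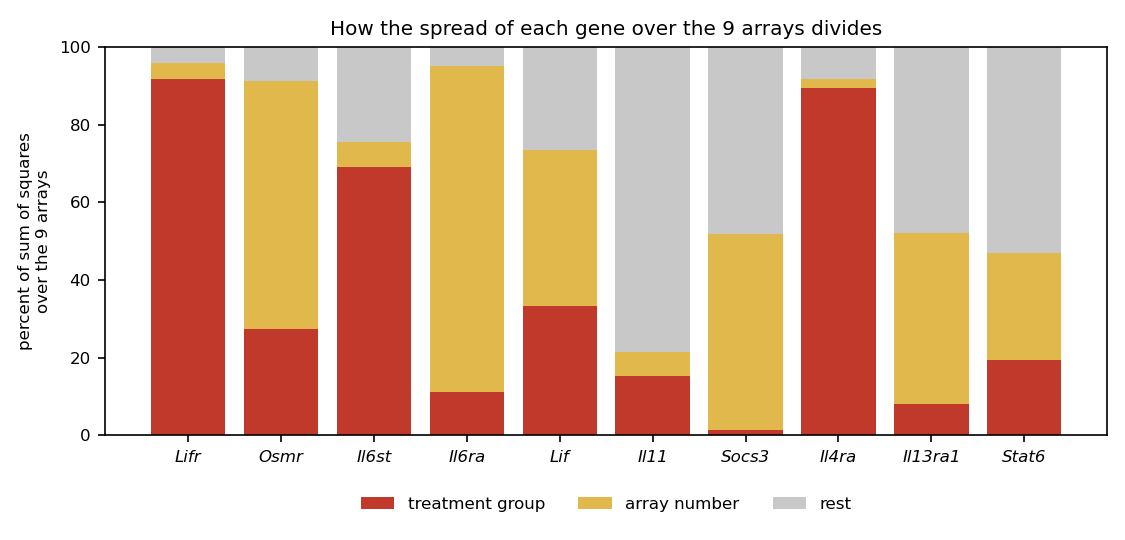
Percent of each gene's sum of squares over the 9 arrays that lies between treatment groups, between array numbers and in the rest, as stacked bars that add to 100%. Treatment takes 91.6% for Lifr and 89.5% for Il4ra, and array number takes 83.9% for Il6ra and 64.0% for Osmr.

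Other genes of both pathways were followed in 8 lists. The lists were drawn up with earlier results of these data known, so nothing is read from their counts. Of all tested clusters 0.31% passed as higher and 0.14% as lower for hPTH(1-34) against vehicle, and 0.332% and 0.132% against bPTH(7-34). In the list of other JAK and STAT genes, 1 of 8 rose with hPTH(1-34) and 0 fell: Stat3, the main transcription factor of gp130 signals. Its level was 9.25, 9.37 and 9.46 with hPTH(1-34), 8.79, 8.65 and 8.68 with bPTH(7-34), and 8.90, 8.61 and 8.72 with vehicle. The hPTH(1-34) arrays lay above the rest, with a change of 0.62 ± 0.10 against vehicle (limma adjusted p = 0.0474) and 0.65 ± 0.10 against bPTH(7-34) (adjusted p = 0.0379). The first call was kept in 1 of the 9 fits without an array, that without hPTH(1-34) array 1 (adjusted p = 0.0366), and was 0.0513 to 0.202 in the others. Against bPTH(7-34) it was kept without hPTH(1-34) array 1 (0.0306) or vehicle array 1 (0.0477) and was 0.0609 to 0.156 in the others. The list had a median change of -0.09 for hPTH(1-34) against vehicle, with 4 of 8 positive.

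In the list of other SOCS, PIAS and phosphatase brakes, 1 of 15 rose with hPTH(1-34) and 0 fell. The shares of all tested clusters against vehicle were 0.31% and 0.14%. The gene that rose was Ptpn2, which encodes a phosphatase that takes phosphate off JAK1, JAK3 and STAT proteins. Ptpn2 was at 7.41, 7.65 and 7.58 with hPTH(1-34), 6.48, 6.65 and 6.30 with bPTH(7-34), and 6.73, 6.47 and 6.58 with vehicle. The groups of hPTH(1-34) and vehicle were well apart, at a change of 0.95 ± 0.12 (limma adjusted p = 0.0204), as were those of hPTH(1-34) and bPTH(7-34) (1.07 ± 0.12, adjusted p = 0.0133). The call against vehicle was lost without hPTH(1-34) array 2 (adjusted p = 0.114) or 3 (0.129) and without vehicle array 2 (0.118) or 3 (0.123). Against bPTH(7-34) it was lost without hPTH(1-34) array 2 (0.0926) or 3 (0.0830), or bPTH(7-34) array 2 (0.0515) or 3 (0.0653). The list's median change was 0.07 for hPTH(1-34) against vehicle. Socs2, a SOCS inhibitor known for its hold on growth hormone signals, had means of 5.32 with hPTH(1-34), 4.13 with bPTH(7-34) and 4.13 with vehicle, and its change of 1.19 ± 0.28 against vehicle, singled out after its value was seen, did not pass (limma adjusted p = 0.148).

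In the list of other IL-4 and IL-13 system genes, 1 of 5 fell with hPTH(1-34) and 0 rose. The shares of all tested clusters against vehicle were 0.14% and 0.31%. The gene that fell was Irs1, an adaptor that the insulin and IGF-1 receptors and the IL-4 receptor use. Irs1 was at 5.98, 5.75 and 5.43 with hPTH(1-34), 6.71, 6.79 and 7.20 with bPTH(7-34), and 6.62, 6.84 and 7.09 with vehicle, so that its hPTH(1-34) arrays lay below all others. The change was -1.13 ± 0.19 against vehicle (limma adjusted p = 0.0449) and -1.18 ± 0.19 against bPTH(7-34) (adjusted p = 0.0376), while a dimmer Irs1 cluster gave -0.21 ± 0.17 against vehicle (adjusted p = 0.753). Against vehicle the call was kept without hPTH(1-34) array 1 (adjusted p = 0.0257) or bPTH(7-34) array 3 (0.0499) and was 0.0684 to 0.201 without each of the others. Against bPTH(7-34) it was kept without hPTH(1-34) array 1 alone (0.0218) and was 0.0510 to 0.154 otherwise. Neither Il4 nor Il13, the ligand genes, lay above the background guide.

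No member of the other 5 lists passed in limma. Among 7 other gp130 family ligands, Il6, the interleukin 6 gene, was at 8.81, 8.74 and 8.79 with hPTH(1-34), 7.32, 7.97 and 5.91 with bPTH(7-34), and 7.70, 7.47 and 7.41 with vehicle. Its change against vehicle was 1.25 ± 0.41 (limma adjusted p = 0.358), with bPTH(7-34) array 3 far below the rest, and without that array the same change had adjusted p = 0.0393. In that list Clcf1, a ligand of the CNTF receptor, gave 0.32 ± 0.13 (adjusted p = 0.507). Among 3 other receptors, Cntfr, the CNTF receptor chain, was at 5.65, 6.45 and 6.32 with hPTH(1-34), 5.44, 5.58 and 5.58 with bPTH(7-34), and 5.52, 5.37 and 5.44 with vehicle. It gave 0.70 ± 0.18 against vehicle (adjusted p = 0.215), but 0.94 without hPTH(1-34) array 1 (adjusted p = 0.00705), and Il27ra gave 0.20 ± 0.13 (adjusted p = 0.705).

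The 15 STAT3 target genes had a median change of 0.03 for hPTH(1-34) against vehicle, with 9 positive. Those with the smallest p were Cebpb, a C/EBP transcription factor (0.43 ± 0.14, limma adjusted p = 0.347), and Steap4, a metalloreductase (-0.31 ± 0.10, adjusted p = 0.372). The 12 STAT6 target genes, known mostly from macrophages, had a median of -0.01, and 6 lay above the background guide. Their smallest p belonged to the transcription factor gene Klf4 (-0.25 ± 0.13, adjusted p = 0.607) and the adhesion molecule gene Vcam1 (-0.33 ± 0.17, adjusted p = 0.610). Among 17 other type I cytokine receptors the median was 0.00, and Ghr, the growth hormone receptor, gave -0.29 ± 0.11 (adjusted p = 0.411). Il2rb, an interleukin 2 receptor chain, gave 0.20 ± 0.09 (adjusted p = 0.537) at levels around background. With bPTH(7-34) against vehicle 0 genes of any of the 8 lists passed in limma, and the list medians ran from -0.03 to 0.09.

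**Figure D5:**
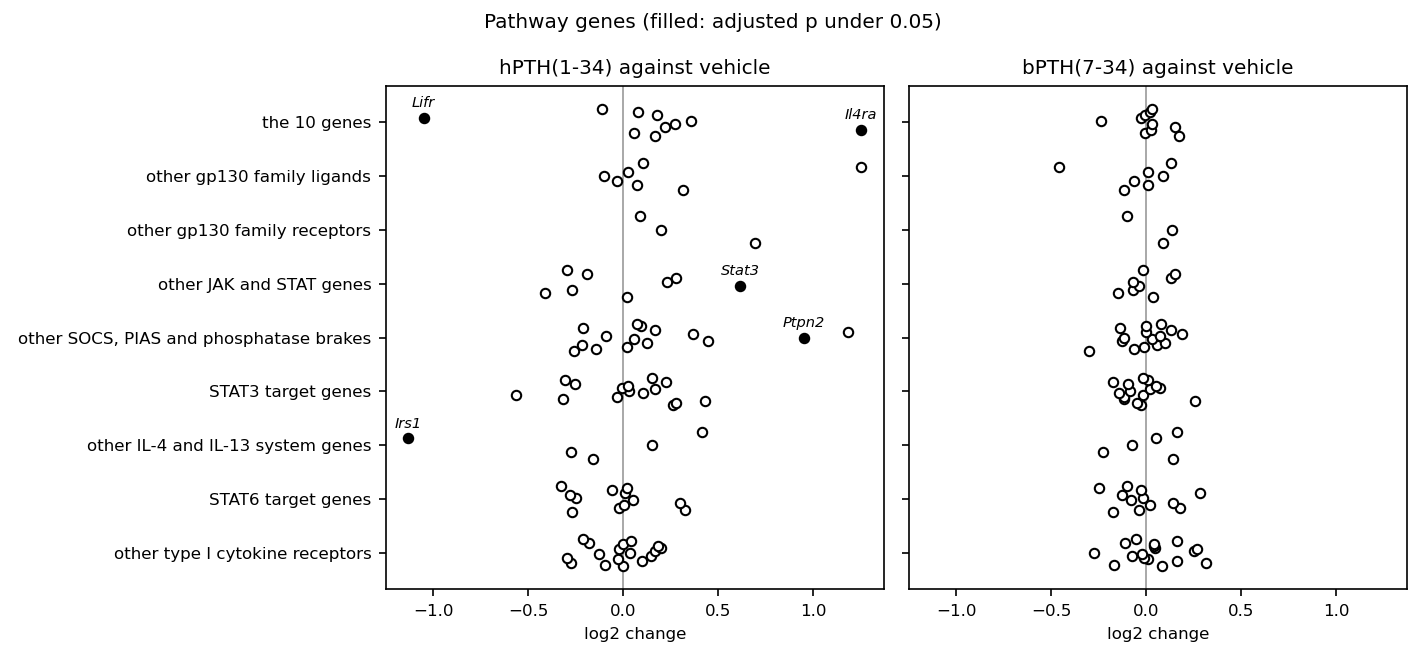
Log2 change of each measured gene in the set of 10 and in the 8 pathway lists, for hPTH(1-34) against vehicle (left) and bPTH(7-34) against vehicle (right), with filled and named points for adjusted p under 0.05. On the left Lifr, Il4ra, Stat3, Ptpn2 and Irs1 are filled, and on the right none is.

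The genes whose pattern over the 9 arrays was most like that of Lifr and Il4ra were found by the root mean square difference between log2 levels, each centred on the gene's own mean, over 8921 genes with a mean of at least 3. For Lifr they were Cdc42ep3, a Cdc42 effector (difference 0.109), Klhl24, a ubiquitin ligase adaptor (0.117), and Dennd4a (0.125). Their changes for hPTH(1-34) against vehicle were -0.87, -0.98 and -0.85, against -1.05 for Lifr, and a dimmer Cdc42ep3 cluster gave -0.16. For Il4ra they were Dctn4, a dynactin subunit (0.119), Shisal1 (0.123) and Mt1, a metallothionein (0.140). Their changes were 1.11, 1.04 and 1.21, against 1.25 for Il4ra. These genes were picked for their likeness, so their changes are a description.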

How the data were processed

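Each array gives RNA levels of 1 sample of primary mouse calvarial osteoblasts, labelled from 100 ng of total RNA for Affymetrix Mouse Gene 2.0 ST arrays. The deposited values are log2 levels per transcript cluster, made by the authors with Affymetrix Expression Console and RMA, per the submitters' processing notes (versions not given in the sources used here), and rounded to 2 decimals. The table held 41345 clusters, of which the platform annotation gave 1 symbol to 23521, several to 1814 and none to 16010, and 23328 of the 23521 had an identifier in the RefSeq table (GRCm38.p6), 0 of them with another symbol there. Groups were taken from the sample titles. limma 3.58.1 in R 4.3.3 fitted the 9 arrays with group as the only term (6 residual and 3.20 prior degrees of freedom), with two-sided tests, Benjamini-Hochberg adjustment over the 23521 clusters in each comparison and a threshold of 0.05. Where a call is said to be kept or lost, the same fit was repeated without 1 array, with the spread pooled over the groups. Per the series' design text, replicates came from independent preparations of cells. Arrays have no read depth, and their number limits the precision. Errors of changes are standard errors of the fit. The fit was also run on simulated data with independent noise for each cluster and array. Those data had no differences between array numbers, so they cannot show how such differences bear on the calls. Plots used matplotlib 3.10.9 in Python 3.11.15.

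The genes, lists, tests and alternatives were chosen with earlier results of these data known. Genes named outside the 10 are those of each list that passed in any comparison, else the 2 of smallest p when hPTH(1-34) was compared with vehicle, and the 3 most like Lifr and Il4ra. In those searches predicted genes, small RNA genes and olfactory receptors were passed over. Socs2 was named outside this rule, after its values were seen. Listed genes without a cluster of their own were not analysed here. As alternatives, each array was left out, the array number was added as a block (fixed or random), other clusters were tested (all of them, those with a mean log2 of 5 or more, or 1 per gene), levels were rescaled (quantile normalisation, or one median for all arrays), eBayes was run with a trend or robustly, arrays were weighted, a comparison was fitted on its own 6 arrays, and a dimmer cluster was read.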

Additional observations from a re-analysis of the deposited data

How the results depend on the processing

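The counts changed when single arrays were left out. Over the 9 fits that each left out an array, from 0 to 2 of the 10 genes passed for hPTH(1-34) against vehicle and from 0 to 2 against bPTH(7-34), with 0 to 259 and 2 to 262 of all clusters, against 106 and 109 in the full fit. The counts of clusters were 259 and 262 without hPTH(1-34) array 1, 3 and 3 without array 2, and 2 and 3 without array 3. They were 51 and 48, 44 and 2, and 67 and 3 without bPTH(7-34) arrays 1, 2 and 3, and 72 and 70, 0 and 35, and 0 and 40 without vehicle arrays 1, 2 and 3. A fit of all 41345 clusters called 0 of the 10 genes in each, with 16 and 3 clusters. A fit of the 6 arrays of a comparison alone called 0 of the 10 and 0 clusters in limma, with 1936 and 2066 at an unadjusted p under 0.05. Testing only clusters with a mean log2 of 5 or more gave 182 and 211 calls, and array weights 166 and 204, with 2 of the 10 genes in each. Some of these fits differ in the arrays used and others in the clusters tested, and why the counts differ was not tested. In each of the 19 alternatives Lifr and Il4ra kept their direction with hPTH(1-34). Their unadjusted p in limma was at most 0.000531 against vehicle and 0.000457 against bPTH(7-34). Both genes were named with these changes known, and the alternatives reuse the same arrays, so this is a description and no independent evidence. bPTH(7-34) against vehicle gave 0 calls in all of them. With the array number as a replicate block, 112 and 116 clusters were called as a fixed term and 127 and 149 as a random one, with 2 of the 10 genes each time. With the fixed block, Lifr (adjusted p = 0.0298 against vehicle) and Il4ra (0.0460) passed, and Stat3 (0.0754 against vehicle and 0.0594 against bPTH(7-34)) and Irs1 (0.0720 and 0.0594) did not. Deviations of arrays with one number correlated between 0.0646 and 0.364 over all tested clusters (6 of 9 pairs above 0.1) and between 0.0696 and 0.601 over those with a mean log2 of 5 or more (8 of 9). As not every pair passed 0.1 in either, the numbers were not taken as pairs. In 17 of 18 cases an array correlated best, within another group, with the array of its own number. Stat3 also missed the threshold with the arrays shifted to one median (adjusted p = 0.0620 against vehicle). Of 561 results of the 10 genes under an alternative, 31 (all of Lifr or Il4ra) lost the call. Another 1 moved, the dimmer Socs3 cluster (-0.39 for bPTH(7-34) against vehicle). The other 529 kept their call or, where there was none, gained none and moved by less than the SD within groups. Only Lifr and Il4ra, with hPTH(1-34), had a call to lose. Over 19 alternatives Lifr kept it in 12 in either comparison, and Il4ra in 11 against vehicle and 10 against bPTH(7-34). Il11 lay near background, which limits what its values can show.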
